A study of Mus musculus with 6 samples.

Results

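The tropomyosins, tropomodulins and leiomodins were examined in *Hnrnpa2b1* KO and WT C2C12 cells, an immortalized mouse myoblast line that forms multinucleated myotubes when serum is withdrawn. *Hnrnpa2b1* encodes an RNA-binding protein of the hnRNP family that takes part in pre-mRNA splicing. The 10 genes were taken by symbol from the table of gene counts, which lists 46078 genes, and were *Tpm1*, *Tpm2*, *Tpm3*, *Tpm4*, *Tmod1*, *Tmod2*, *Tmod3*, *Tmod4*, *Lmod2* and *Lmod3*. All 10 had a row, and 9 passed the filter on low counts. The KO group held 3 libraries labelled hnrnpa2b1 KO (KO1, KO2 and KO3) and the WT group held 3 libraries labelled WT (WT1, WT2 and WT3). Cells of both groups were differentiated for 2 days by withdrawing growth serum and adding ITS, the insulin, transferrin and selenium supplement, before bulk RNA was taken. The culture methods give this medium a low level of horse serum. The KO clones were made with CRISPR-Cas9 and a single guide RNA, delivered on a plasmid selected with puromycin, and clones of both genotypes were picked with a cloning ring. The protein blots used control myoblasts given a scrambled guide, and the sources used here do not say whether the WT libraries came from such cells, nor which clone each library came from. A KO library may therefore stand for 1 clone, and the p-values measure the spread between these libraries. *Hnrnpa2b1* RNA itself was at 159, 195 and 249 CPM (the count per library size, scaled by edgeR's TMM factors) in KO against at 225, 229 and 252 in WT, so the groups overlapped. Loss of the protein was assessed by the authors on blots and images that were not analysed here. Wherever 3 values of a genotype follow each other, they are in the order KO1, KO2, KO3 or WT1, WT2, WT3. The libraries held 33605258 to 40558740 counts each.

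Tropomyosins are coiled-coil dimers that lie end to end along the actin filament. In the sarcomere, the contractile unit of muscle, they hold the troponin complex and gate the binding of myosin, and in other cells they stabilise stress fibres and cortical filaments. Tropomodulins cap the slow-growing pointed end of tropomyosin-coated filaments, and leiomodins, which share their actin-binding folds but lack a tight cap, nucleate and elongate filaments there. *Tpm1* and *Tpm2* are the main tropomyosin genes of fast and developing muscle, *Tpm3* serves slow muscle and the cytoskeleton, and *Tpm4* is mainly cytoskeletal. *Tmod1* is the tropomodulin of striated muscle and red cells, *Tmod2* of neurons, *Tmod4* of skeletal muscle, and *Tmod3* is widely expressed. *Lmod2* is best known in the heart and *Lmod3* in skeletal muscle, where its loss causes nemaline myopathy.

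On GRCm38 the tropomyosin genes lay on 4 chromosomes. *Tpm1* (ENSMUSG00000032366) was at chr9:67022590-67049406 on the minus strand, *Tpm2* (ENSMUSG00000028464) at chr4:43514711-43523765 on the minus strand, *Tpm3* (ENSMUSG00000027940) at chr3:90072649-90100902 on the plus strand and *Tpm4* (ENSMUSG00000031799) at chr8:72134975-72153142 on the plus strand. *Tmod2* (ENSMUSG00000032186, chr9:75565621-75611325) and *Tmod3* (ENSMUSG00000058587, chr9:75497796-75559657) are neighbours on the minus strand with 5.96 kb between them. *Tmod1* (ENSMUSG00000028328) was at chr4:46038935-46116032 and *Tmod4* (ENSMUSG00000005628) at chr3:95124476-95129209, both on the plus strand. *Lmod2* (ENSMUSG00000029683, chr6:24597762-24605414, plus strand) and *Lmod3* (ENSMUSG00000044086, chr6:97238528-97252780, minus strand) shared a chromosome. The GENCODE M21 annotation gives *Tpm1* 16 protein-coding transcripts, *Tpm2* 4, *Tpm3* 7 and *Tpm4* 1. Their starts fall in 2 places over 500 bases apart in *Tpm1* and in 3 places in *Tpm3*. Muscle and cytoskeletal tropomyosins come from the same genes by alternative starts and splicing, and counts per gene pool them, so the values below are of all isoforms together.

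Compared per length as TPM (expression scaled to transcript length and library), *Tpm1* and *Tpm2* were far above the other 8 genes in every library. In WT, *Tpm1* had 1393 ± 95.4 TPM (SD, n = 3) and *Tpm2* had 1335 ± 266 TPM (SD, n = 3), and their ranges overlapped. *Tpm4* followed at 128 ± 38.3 TPM (SD, n = 3), below *Tpm2* in every WT library. *Tpm3*, *Lmod2* and *Lmod3* came next in WT at means of 85.6, 64.2 and 59.8 TPM, and each overlapped its neighbour in the order. *Tmod1* at 43.9 ± 4.28 TPM (SD, n = 3) overlapped *Lmod3* and was above *Tmod3* at 8.60 ± 2.71 TPM (SD, n = 3) in every WT library. *Tmod4* and *Tmod2* were at the bottom, with mean levels of 0.351 and 0.0207 TPM. The order of the mean levels was the same in KO, but *Tpm3* was above *Lmod2* there without overlap, at 86.7 to 109 against 38.4 to 73.0 TPM.

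Differential expression was tested on the counts of 14828 genes with edgeR's quasi-likelihood test, and p-values were adjusted over all of them. *Tmod3* was the 1 member called at an adjusted p under 0.05, and it was higher in KO. It is 1 of 9 members tested (11.1%), where 22.7% of all genes tested were called, 12.1% higher and 10.6% lower in KO. At an unadjusted p under 0.05, 3 members differed (*Tpm4*, *Tmod1* and *Tmod3*), where 39.0% of all genes tested did. KO and WT libraries did not overlap in CPM for 3 of the 9 members, *Tpm3*, *Tmod1* and *Tmod3*, where the background was 44.3%. By these counts the members were called no more often than genes at large. In bulk RNA, fewer cells of a type and less RNA per cell cannot be told apart, and this holds for every value here.

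**Figure D1:**
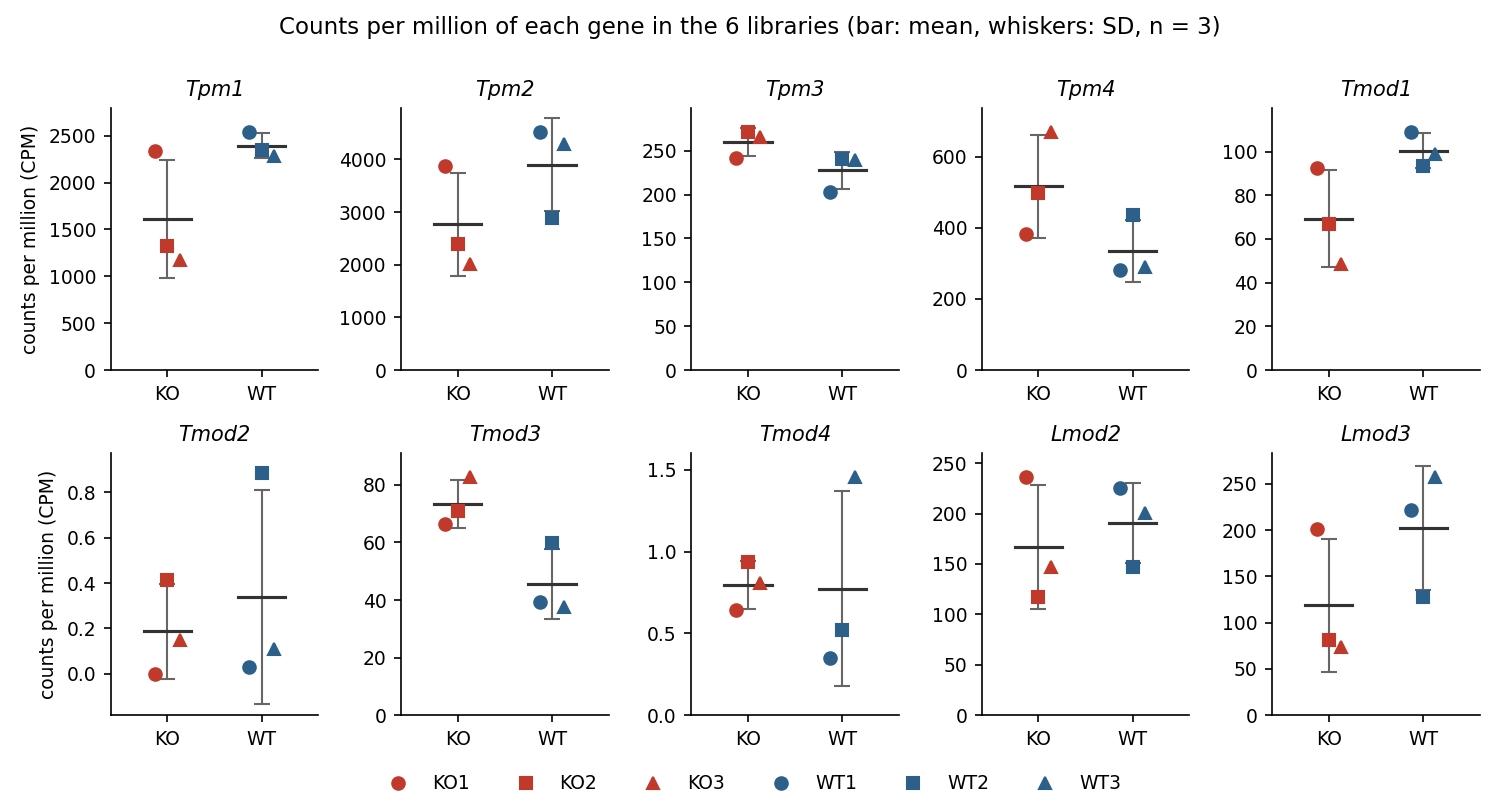
TMM-scaled CPM (y axis, 1 scale per gene) of the 10 genes in KO (red) and WT (blue), with 1 point per library, the mean as a bar and the SD as whiskers (n = 3). *Tmod3* is higher in all 3 KO libraries than in any WT library, KO1 lies at or near WT for *Tpm1*, *Tpm2*, *Lmod2* and *Lmod3*, and *Tmod2* and *Tmod4* stay below 1.5 CPM.

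*Tpm1* and *Tpm2*, counted with all isoforms pooled, were at lower mean levels in KO without passing the test. *Tpm1* had 2338, 1327 and 1170 CPM in KO against 2539, 2350 and 2287 CPM in WT. KO2 and KO3 were thus well below WT, whereas KO1 lay inside the WT range. Relative to WT, its log2 fold change in KO was −0.57 (SE 0.29, edgeR adjusted p = 0.182), so the difference did not pass. It was −0.94 without KO1 (adjusted p = 0.00998), −0.38 without KO3 (adjusted p = 0.386) and −0.32 after the median change of its 10 Mb region, −0.25 over 77 genes, was removed (adjusted p = 0.452, edgeR).

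*Tpm2* had 3878, 2400 and 2012 CPM in KO against 4519, 2883 and 4283 CPM in WT. Here too KO2 and KO3 were lowest, KO1 was among the WT libraries, and WT2 was the lowest WT library. The log2 fold change was −0.50 (SE 0.32, edgeR adjusted p = 0.285). Without KO1 it was −0.83, with an adjusted p of 0.0483 from edgeR, just inside the threshold, and without KO3 it was −0.31 (adjusted p = 0.547, edgeR). Only the omission of KO1 brought it past among the settings run.

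*Tpm3* and *Tpm4*, the tropomyosins with cytoskeletal roles, were at higher mean levels in KO. *Tpm3* had 242, 271 and 266 CPM in KO against 203, 240 and 240 CPM in WT. All KO libraries were above all WT libraries, but KO1 exceeded WT2 by little, and the log2 fold change was 0.19 (SE 0.14, edgeR adjusted p = 0.335). It was 0.10 without WT1 (adjusted p = 0.727, edgeR), and in TPM the *Tpm3* groups overlapped, with a log2 difference of 0.16 from limma that was 0.07 without KO3. The reads of *Tpm3* could be shared with its intronless copies, of which *Tpm3-rs7* had 57 to 130 counts a library and *Tpm3-rs2* had 0.

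*Tpm4* had 383, 499 and 670 CPM in KO against 281, 437 and 289 CPM in WT. KO3 was highest, and WT2 lay between KO1 and KO2, so the groups overlapped. The mean in KO was 1.54 times that in WT, with a log2 fold change of 0.62 (SE 0.26, edgeR adjusted p = 0.117). Its region went the other way, with a median log2 fold change of −0.24 over 118 genes, and with this removed the value was 0.87 (adjusted p = 0.053, edgeR). With each library left out it ran from 0.40 without KO3 (adjusted p = 0.301) to 0.85 without WT2 (adjusted p = 0.0762, edgeR), and it passed without KO1, at 0.79 (adjusted p = 0.0344). The antisense genes *Gm26586* and *Gm16091*, which overlap *Tpm4*, had at most 101 and 139 counts in a library. Whether the counting used strand is not given in the sources used here.

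Among the tropomodulins, *Tmod3* was higher and *Tmod1* lower in CPM in every KO library than in every WT library, and in TPM this held for *Tmod1* alone. *Tmod3*, the widely expressed cap, had 66.6, 70.8 and 82.7 CPM in KO against 39.3, 59.7 and 37.7 CPM in WT. Every KO library, KO1 included, was above the highest WT library, WT2. The KO mean was 1.61 times the WT mean, with a log2 fold change of 0.69 (SE 0.20, edgeR adjusted p = 0.042). Leaving out KO2, KO3, WT1 or WT3 ended the call, with a log2 fold change of 0.54 to 0.72 and an edgeR adjusted p of 0.0667 to 0.162, whereas it held without KO1 (adjusted p = 0.0295) or WT2 (adjusted p = 0.0177). The call was also lost with the replicate number as a block, at 0.71 (edgeR adjusted p = 0.0559). In TPM the *Tmod3* groups overlapped, since KO1 at 11.5 TPM was just below WT2 at 11.7 TPM, and it did not pass there, where limma on log2(TPM + 1) gave a difference of 0.67 (SE 0.23, adjusted p = 0.0736). The 74 genes tested in its 10 Mb region had a median log2 fold change of −0.04, and its value was 0.73 after that median was removed.

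*Tmod1*, the cap of the sarcomere's thin filaments, had 92.6, 66.7 and 48.5 CPM in KO against 109, 93.3 and 98.8 CPM in WT. KO3 was the lowest library, while KO1 and WT2 were almost equal. The log2 fold change was −0.53 (SE 0.22, edgeR adjusted p = 0.117), and it ran from −0.80 without KO1 (adjusted p = 0.0107) to −0.33 without KO3 (adjusted p = 0.237). *Tmod1* overlaps *Tstd2* on the opposite strand by 1287 bases, and *Tstd2* had 1016 to 1767 counts a library, so part of either count could belong to the other gene.

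The tropomodulins of neurons and of adult skeletal muscle were barely detected. *Tmod2* had 0, 18 and 6 counts in KO against 1, 29 and 4 in WT and was not tested. Its 0 counts in KO1 allow up to 3 counts in that library. *Tmod4* had 23, 41 and 33 counts in KO and 12, 17 and 54 in WT, and its log2 fold change of 0.04 (SE 0.55, edgeR adjusted p = 0.967) was far smaller than its error. The direction turned to −0.09 without KO2, −0.32 without WT1 and −0.19 without WT2.

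Neither leiomodin passed the test, though *Lmod3* had the largest negative log2 fold change of the 9 members tested. *Lmod3* had 201, 81.3 and 73.5 CPM in KO against 221, 128 and 257 CPM in WT. KO2 and KO3 were below all WT libraries, KO1 was just below WT1, and WT2 lay between KO2 and KO1. The log2 fold change was −0.77 (SE 0.42, edgeR adjusted p = 0.209). It was −1.39 without KO1 (adjusted p = 0.00796), −0.52 without KO3 (adjusted p = 0.449) and −0.47 with its region's median of −0.30 over 35 genes removed (adjusted p = 0.447, edgeR).

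*Lmod2* had 236, 117 and 147 CPM in KO against 225, 147 and 200 CPM in WT. KO1 was the highest library of all 6, KO3 and WT2 were level, and the groups overlapped. The log2 fold change was −0.19 (SE 0.27, edgeR adjusted p = 0.639). It was 0.01 without KO2, −0.06 without WT1, −0.11 without KO3, −0.36 without WT2 and −0.53 without KO1 (adjusted p = 0.0829, edgeR). *Lmod1*, the leiomodin of smooth muscle and no member of the set, was named after its values were seen, because it was called: it had 6.38, 6.44 and 7.96 CPM in KO against 18.0, 9.94 and 22.3 CPM in WT. Its log2 fold change was −1.27 (SE 0.29, edgeR adjusted p = 0.0208), a call lost without KO2, WT1 or WT3 (adjusted p of 0.0538 to 0.0837, edgeR), and here KO1 did not stand apart from KO2 and KO3.

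TPM gave the same signs for the 8 members tested on that scale and no call. With limma on log2(TPM + 1), 0 of 8 passed, where 20.2% of the 11691 genes tested did, and 5 had an unadjusted p under 0.05 (*Tpm1*, *Tpm2*, *Tmod1*, *Tmod3* and *Lmod3*), where 36.1% of the genes tested did. The smallest adjusted p of a member by limma was that of *Tmod3*. Only *Tmod1* kept KO and WT libraries apart in TPM, at 38.4, 29.2 and 26.1 TPM in KO against 48.7, 42.6 and 40.5 TPM in WT, where the background was 40.6%. In each library 3 RNAs took 36.7% to 44.7% of all TPM, and with TPM rescaled to a common median, an alternative chosen after seeing this, *Tmod3* passed (limma adjusted p = 0.0448).

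Set beside each other, the members fell into a pair of patterns across the libraries. *Tpm1*, *Tpm2*, *Tmod1*, *Lmod2* and *Lmod3* were highest within KO in KO1, at log2 differences of −0.11 to 0.33 from the mean of the WT libraries. In KO2 and KO3 the same 5 genes were at −0.35 to −1.40. *Tpm3*, *Tpm4* and *Tmod3* were lowest within KO in KO1, at 0.09 to 0.58, and reached 0.23 to 1.03 in KO2 and KO3. WT2 stood apart from WT1 and WT3 for some members, at −0.60 for *Lmod3*, −0.41 for *Tpm2*, −0.36 for *Lmod2*, 0.41 for *Tpm4* and 0.42 for *Tmod3*. For *Tpm1* (−0.02), *Tmod1* (−0.10) and *Tpm3* (0.08) WT2 was near WT3, at −0.06, −0.02 and 0.08, while WT1 was at 0.09, 0.12 and −0.16. Over the 6 libraries, which share 2 genotypes, Pearson's r of log2 CPM was 0.664 to 0.983 for the 10 pairs within the first 5 genes, 0.776 to 0.936 for the 3 pairs within the others, and −0.973 to −0.579 for the 15 pairs between them. *Tmod4* had r of −0.378 to 0.634 with the other 8. These 36 values are a description, since the genes were grouped after their values were seen.

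**Figure D2:**
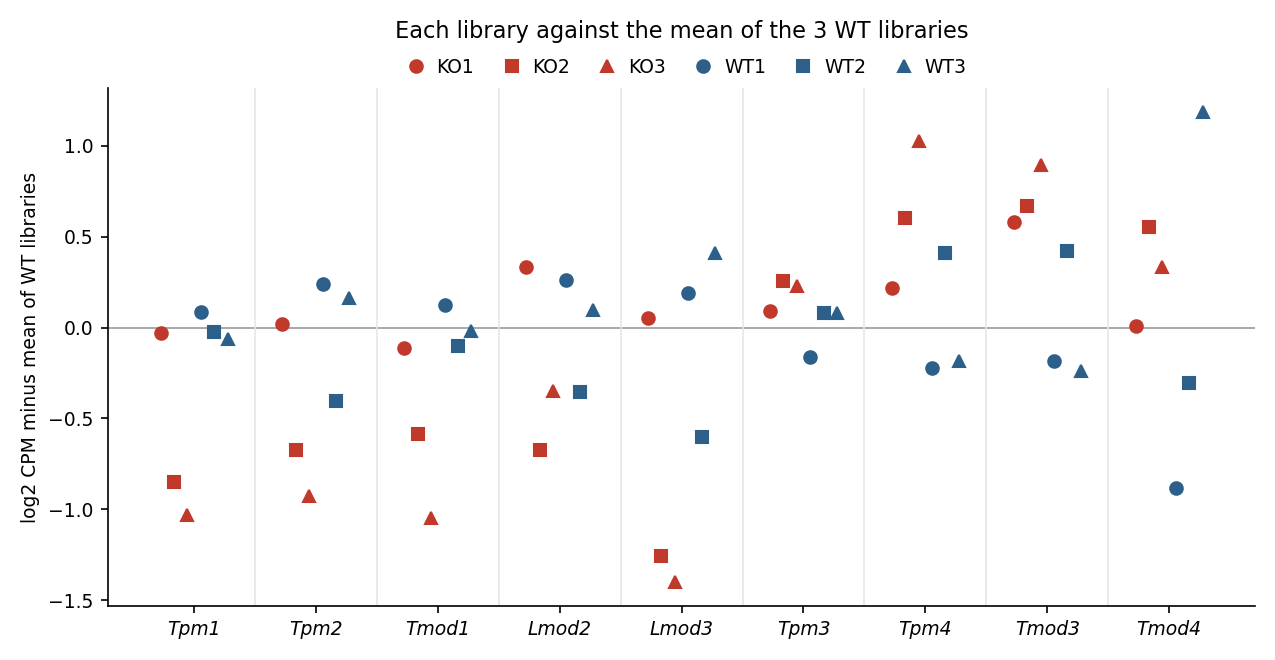
Log2 CPM of each library minus the mean of the 3 WT libraries (y axis) for the 9 genes tested (x axis), KO in red and WT in blue, with 1 marker shape per library number. For *Tpm1*, *Tpm2*, *Tmod1*, *Lmod2* and *Lmod3* the KO1 points lie between −0.11 and 0.33 and the KO2 and KO3 points lower, and for *Tpm4* and *Tmod3* the order is turned around.

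Of the marker lists, the summed levels of differentiated muscle and of cycling cells set KO1 apart from KO2 and KO3. Summed CPM of 5 differentiated muscle genes (*Myog*, *Myh3*, *Ckm*, *Des* and *Mymk*) was 10020, 4682 and 4106 in KO and 8769 to 10770 in WT, and 0 of the 5 were called. *Myh3*, an embryonic myosin heavy chain, made up much of this sum, at 4146, 1007 and 1423 CPM in KO and 4474 to 5811 in WT. *Myog*, the regulator of early differentiation, was at 1709, 1532 and 1005 CPM in KO and 1244 to 1464 in WT, and *Myog* and *Mymk* had log2 fold changes of 0.06 each. Summed CPM of 3 cycling-cell genes (*Mki67*, *Top2a* and *Ccnb1*) was 159, 308 and 296 in KO and 154 to 209 in WT, with 0 called. Of the 4 genes of undifferentiated myoblasts, *Pax7* and *Sdc4* rose, *Myf5* fell, and *Pax3* had at most 4 counts in a library, with sums of 112, 154 and 96.9 CPM in KO and 69.6 to 80.0 in WT. The 8 smooth muscle genes summed to 4090 to 4321 CPM in KO and 4190 to 4970 in WT, and *Lmod1* was the 1 called. The 5 fibroblast genes summed to 548, 58.9 and 460 CPM in KO and to 61.7 to 130 in WT. Of these, *Pdgfra* rose, *Dcn* (decorin) was at 90.6, 7.58 and 7.62 CPM in KO and 7.01 to 17.7 in WT, and *Lum* (lumican) was at 2.41, 0.206 and 0.122 CPM in KO and at most 0.297 in WT. KO1 thus stood apart in these 2 genes from all other libraries, while *Col1a1* was high in KO1 and KO3 and *Thy1* had at most 5 counts in a library. Among the 5 red cell genes *Hba-a2*, *Hbb-bs* and *Hbb-bt* had 0 counts throughout, and the sum was at most 1.71 CPM. The part of muscle differentiation, of cycling cells and of fibroblast RNA in the members' levels was not tested.

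With KO1 left out, 6 of 10 members tested were called, where 30.6% of 15409 genes were called without it. *Tpm1*, *Tpm2*, *Tmod1* and *Lmod3* were then lower, and *Tpm4* and *Tmod3* higher, in KO than in WT. *Lmod3* had the largest change at −1.39 (SE 0.28) and *Tmod3* was at 0.75 (SE 0.21). Each library was left out in turn, and the omission of KO1 is singled out after its values were seen, so this count is a description of KO2 and KO3 against WT. Leaving out any other library gave 0 or 1 member called, but fewer genes at large were called then too. All genes called numbered 2695 without KO2, 2088 without KO3, 933 without WT1, 2100 without WT2 and 1288 without WT3. With all 6 libraries they numbered 3361, and without KO1 4712. With no filter on low counts 4 members were called, beside 15.0% of 30252 genes. That background includes the genes of low count that the filter removes, so nothing is read from this comparison.

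**Figure D3:**
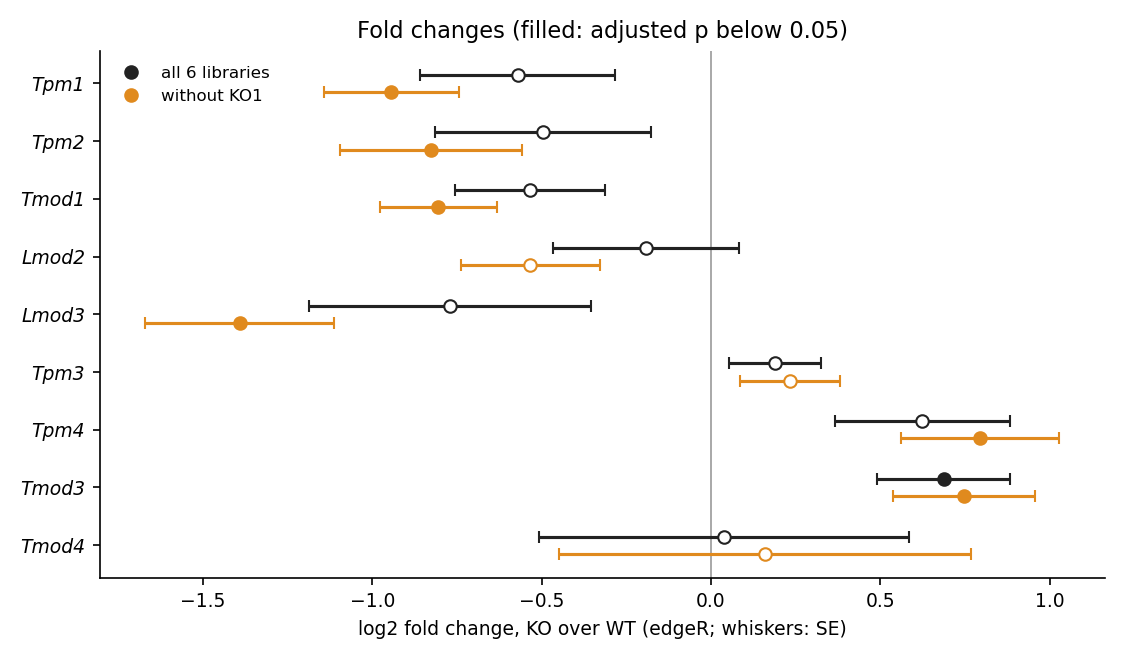
Log2 fold change of KO over WT from edgeR (x axis, whiskers: SE) for the 9 genes tested, with all 6 libraries (black) and without KO1 (orange), filled where the adjusted p was below 0.05. With all libraries only *Tmod3* is filled, at 0.69, and without KO1 *Tpm1*, *Tpm2*, *Tmod1* and *Lmod3* on the left and *Tpm4* and *Tmod3* on the right are filled.

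The make-up of each family was compared as each gene's share of the family's summed TPM, by exact permutation (two-sided, 3 libraries a group), which cannot give a p below 0.1. *Tmod3* made up 22.9%, 30.4% and 40.4% of tropomodulin TPM in KO against 13.2%, 21.4% and 14.0% in WT. *Tmod1* made up 76.4%, 68.6% and 58.7% in KO and 86.5%, 78.0% and 84.7% in WT. Neither share overlapped between genotypes (exact permutation p = 0.1 for each, 0.25 after adjustment over the 10 shares). The mean share of *Tmod3* was higher in KO by 15.0 percentage points, 10.5 to 19.2 with each library left out.

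*Lmod2* made up 57.2%, 62.2% and 69.6% of the summed TPM of the 2 leiomodins in KO against 53.7%, 56.3% and 46.7% in WT. All KO libraries were above all WT libraries in this share (exact permutation p = 0.1, adjusted 0.25). Its own level was 38.4 to 73.0 TPM in KO and 51.5 to 77.8 in WT, while that of *Lmod3* was 23.3 to 54.7 TPM in KO and 40.0 to 72.2 in WT. *Tpm4* made up 4.61%, 10.1% and 15.1% of tropomyosin TPM in KO and 3.43%, 6.14% and 3.59% in WT, with overlap (exact permutation p = 0.2). *Tpm1* and *Tpm2* together made up most of the tropomyosin RNA in all 6 libraries. Summed TPM of the 4 tropomyosins was 2839, 1797 and 1889 in KO and 3163, 2797 and 2862 in WT (exact permutation p = 0.2). The sums of the tropomodulins, 42.5 to 50.2 TPM in KO and 47.8 to 56.3 in WT, and of the leiomodins, 61.7 to 128 in KO and 91.5 to 145 in WT, overlapped as well (exact permutation p = 0.2 for each).

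**Figure D4:**
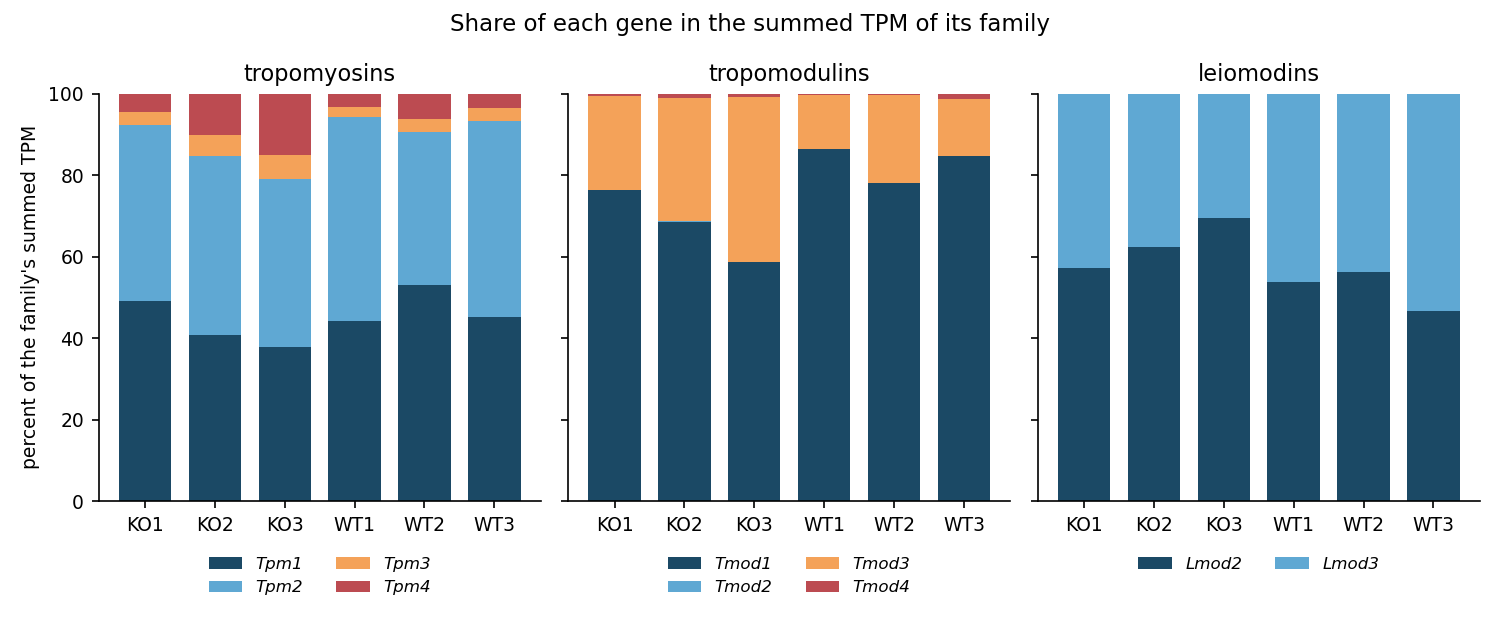
Percent of the summed TPM of the tropomyosins, tropomodulins and leiomodins (y axis) that each gene made up in each of the 6 libraries (x axis, stacked bars). *Tmod3* runs from 22.9% to 40.4% in KO and from 13.2% to 21.4% in WT, and *Tpm4* reaches 15.1% in KO3.

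Of the other genes of the thin filament, 1 passed the test on counts, and others passed on TPM. Of 18 genes that build, line or assemble the sarcomere's thin filament, 16 were tested, 0 rose and 1 fell (6.25% called, beside 22.7% of all genes tested). Fitted values were negative in 13 of the 16, beside 7070 of all 14828 genes tested, with a median log2 fold change of −0.47, beside 0.03 over all genes tested. The 1 called was *Fhod3*, a formin that assembles sarcomeric actin, at 88.5, 82.9 and 94.9 CPM in KO against 151, 102 and 137 CPM in WT. Its log2 fold change was −0.55 (SE 0.16, edgeR adjusted p = 0.0462). The call held without WT2 and was lost without each of the other libraries, at an edgeR adjusted p of 0.0536 to 0.172. It was also lost with the replicate number as a block (edgeR adjusted p = 0.0599). In TPM the *Fhod3* groups overlapped, and it did not pass (limma adjusted p = 0.0902). Summed CPM of the 18 genes was 21250, 8454 and 8132 in KO and 14220 to 19270 in WT, so KO1 was above all WT sums. *Acta1* alone made up 7023 CPM of the KO1 sum, and the genes differed. Of the 16 tested, KO1 was above all WT libraries for *Acta1*, *Cfl2*, *Tnnt1*, *Tnnt3*, *Tnnc1* and *Nrap*. It was below all WT libraries for *Actc1*, *Neb*, *Tnnt2*, *Tnni1*, *Klhl41*, *Cap2* and *Fhod3*, and within the WT range for the rest. Without KO1, 10 of 17 tested fell and 0 rose, where 30.6% of all genes were called, and the median was −1.26. Without KO2, KO3, WT1 or WT3, 0 of the list were called and the median was −0.45 to −0.60, and without WT2, 2 fell. With the median of each 10 Mb region removed the list's median was −0.78. By DESeq2 7 of the 16 fell and 0 rose, where 4373 of all genes were called. With no filter on low counts 9 of the 18 fell and 0 rose, beside 15.0% of 30252 genes, a background that includes the genes of low count. With limma on log2(TPM + 1), *Actc1*, *Tnnt2*, *Tnni1*, *Klhl40*, *Klhl41* and *Cap2* were lower in KO, at adjusted p of 0.0199 to 0.0368. On that scale 20.2% of the 11691 genes tested were called. The share of the list called, set beside that of all genes, thus depended on the setting and the measure.

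Of 20 genes of actin filament ends and turnover, all were tested, 4 rose, 2 fell and 14 did not pass, with a median log2 fold change of 0.19. These 6 calls stand beside 22.7% of all genes called, 12.1% higher and 10.6% lower, and nothing is read from them about the list. The median was 0.34 without WT2 and 0.05 with the median of each 10 Mb region removed, and without WT1 or WT3 1 rise and 1 fall remained. *Cap1*, which recycles actin monomers together with cofilin, had 258, 472 and 479 CPM in KO against 149, 180 and 138 CPM in WT. Its log2 fold change was 1.38 (SE 0.25, edgeR adjusted p = 0.01). *Gsn*, the severing and barbed-end capping protein gelsolin, rose by 1.31 (SE 0.34, edgeR adjusted p = 0.0313), and *Twf1*, twinfilin, which binds actin monomers and the barbed end, rose by 0.87 (SE 0.13, edgeR adjusted p = 0.00513). *Cobl*, a nucleator of unbranched filaments, had 51.8, 40.2 and 33.4 CPM in KO against 141, 129 and 126 CPM in WT, a log2 fold change of −1.66 (SE 0.18, edgeR adjusted p = 0.00184). *Twf2*, the other twinfilin gene, had −1.18 (SE 0.33, edgeR adjusted p = 0.0397). *Twf1* and *Cobl* were called with each of the 6 libraries left out. *Cap1* lost its call without WT1 or WT3, *Twf2* without KO3, WT1 or WT3 or with its region's median removed, and *Gsn* without KO3 or any WT library, and *Gsn* was at 0.82 without KO2. *Twf2* and *Gsn* also lost their calls with the replicate number as a block (edgeR adjusted p = 0.0574 and 0.068). For all 6 genes called, as for *Tmod3*, KO1 was on the side of the other KO libraries, beyond every WT library in CPM.

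For each tested member the gene with the most similar profile was sought among 5255 genes whose log2 CPM averaged 5 or more, by Pearson's r over the 6 libraries. *Tpm1* was nearest to *Tmem184b* (r = 0.997), *Tpm2* to *Spats2* (0.998), *Tpm4* to *Ppfia1* (0.997) and *Tmod3* to *Gak* (0.995). *Tmod1* was nearest to *Cd99l2* (r = 0.994), *Lmod2* to *Slc6a8* (0.989) and *Lmod3* to *Trim54* (0.994). *Tpm3* and *Tmod4* had no profile as close, with *Notch3* at r = 0.959 and *Ptcd3* at 0.901. With 6 libraries and this many genes such values are a description of likeness in these libraries.

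The RefSeq sequence before their starts (GRCm38.p6) was read for the E-box, the core motif bound by the MyoD family. Windows of 250 bases before a start were at hand for 8 members, 10 in all, since *Tpm3* and *Tmod2* have 2 each. The E-box was searched as CANNTG, which reads the same form on both strands, and the muscle CAT motif as CATTCC on both strands. The E-box matched in 8 of the 10 windows, beside 66.2% of all 32536 windows, and CATTCC matched in 2, *Tpm1* and *Tmod1*, beside 12.6%. The MEF2 site was searched as YTAWWWWTAR and the CArG box as CCWWWWWWGG, on both strands (Y is C or T, R is A or G, W is A or T). Exact matches to these forms were in 0 of the 10, beside 2.89% and 1.48%, and near matches were not searched. Shown are the upstream bases that lie outside the gene, for *Tpm2* (chr4:43523766-43523804, minus strand) and *Lmod2* (chr6:24597521-24597761, plus strand) of the first pattern and *Tpm3* (chr3:90072401-90072648, plus strand) of the second, 5′ to 3′ along the gene, with E-boxes in capitals.
Tpm2: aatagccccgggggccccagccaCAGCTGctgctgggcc
Lmod2: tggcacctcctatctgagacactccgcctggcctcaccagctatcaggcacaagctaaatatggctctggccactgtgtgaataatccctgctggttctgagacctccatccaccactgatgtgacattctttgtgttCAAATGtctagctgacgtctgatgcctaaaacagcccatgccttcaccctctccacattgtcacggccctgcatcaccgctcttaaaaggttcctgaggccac
Tpm3: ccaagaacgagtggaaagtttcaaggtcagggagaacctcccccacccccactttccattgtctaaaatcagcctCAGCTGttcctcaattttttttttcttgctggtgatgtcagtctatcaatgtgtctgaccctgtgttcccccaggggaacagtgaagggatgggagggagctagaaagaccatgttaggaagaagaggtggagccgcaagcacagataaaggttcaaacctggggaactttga
The E-boxes shown for *Tpm2* and *Tpm3* were both CAGCTG, as was 1 in *Tmod2*, a form in 3 of the 10 windows and in 13.05% of all windows. The other *Tpm3* window, at its inner start, held CAACTG. *Tpm4*, in the pattern of *Tpm3*, had none of these letters in its window. A match is a description of letters in the window, and no binding was measured here.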

How the data were processed

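RNA from 3 KO and 3 WT libraries was depleted of ribosomal RNA and sequenced in paired ends. The authors trimmed the reads, aligned them with STAR and counted them on genes with featureCounts, per the labels, and the deposited counts carry no normalization. They also deposited StringTie TPM values for each library, and TPM values sharing a gene identifier were summed. Versions and use of strand are not given in the sources used here. The methods name GRCm39 and the processing notes mm9, but 83.15% of matched genes have the coordinates of GENCODE M21 on GRCm38, the build used here. *Tmod3* and *Lmod3* are among those whose ends differ from M21. All count columns were used, and 0 were left out. Of 46078 genes, 14828 passed filterByExpr and were tested with edgeR 4.0.16 (R 4.3.3) under TMM scaling, two-sided, with Benjamini-Hochberg adjustment over all genes and a threshold of 0.05.

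TPM was tested with limma 3.58.1 on log2(TPM + 1), for genes that reached a TPM of 1 in 3 or more libraries. These log2 values were computed here from the deposited TPM. DESeq2 1.42.0, other scaling, no filter, each library left out, the replicate number as a block, a pseudocount of 0.1 and the removal of the median of each 10 Mb region with at least 15 genes were the alternatives. The scripts were tested on simulated counts with a smaller dispersion than edgeR estimated here (0.0671), which checks the code and not the power in these libraries. The libraries held at least 33605258 counts, and all members but *Tmod2* and *Tmod4* had at least 1358 counts in every library. The limit for a count of 0 was 3 counts.

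The members and gene lists were chosen with earlier results of these data known. The named genes were all members, *Hnrnpa2b1*, up to 3 rises and 3 falls past the threshold from each of the thin filament and turnover lists, and for each tested member the most similar gene, leaving out predicted-gene names. Genes of the marker lists, *Lmod1* among them, other thin filament genes, and genes that overlap members or copy them were named outside this rule. Those of the marker lists and of the thin filament were named after their values were seen. *Diaph1*, *Diaph3* and *Mymk* were matched to older symbols by identifier. Splicing and isoforms were not analysed here.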

Additional observations from a re-analysis of the deposited data

How the results depend on the processing

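Of the 9 members tested on counts, the call of *Tmod3* held in 7 of 12 settings, with log2 fold changes of 0.54 to 0.92 and edgeR or DESeq2 adjusted p of 0.0036 to 0.162. The members called on counts numbered 4 with no filter on low counts (*Tpm4*, *Tmod1*, *Tmod3* and *Lmod3*), where all genes called rose from 3361 to 4538, and 0 with the replicate block, where *Tmod3* was at an edgeR adjusted p of 0.0559 and *Fhod3*, *Gsn* and *Twf2* lost their calls too, and 0 to 6 with each library left out. On TPM they numbered 1 with the replicate block (*Lmod3*), 1 with TPM rescaled to a common median, and 0 to 6 with each library left out. The share of all genes called on TPM is given here for the main fit only (20.2%), so nothing is read from these TPM counts. The thin filament genes called on counts, all of them lower in KO, were 7 with DESeq2, 2 with RLE size factors and 9 with no filter on low counts. They were 3 with the replicate block and 0 to 10 with each library left out. All genes called numbered 4373 with DESeq2, 3383 with RLE size factors and 2520 with the replicate block. The turnover genes called were 2 to 10, and all genes called 933 (without WT1) to 4712 (without KO1), with each library left out. Direction turned for *Tmod4* on counts (−0.32 to 0.85 with each library left out), *Lmod2* on counts (−0.53 to 0.0081) and on TPM (−0.43 to 0.0265), and the shares of *Tmod2* (−0.0305 to 0.0264 percentage points) and *Tmod4* (−0.0449 to 0.429). The cause of these shifts was not tested. Same-numbered libraries' deviations from their group means had correlations across genes of 0.137, −0.116 and 0.004, and those of different numbers had −0.335 to 0.28. With 3 libraries a group, these values cannot decide whether the replicate numbers pair the libraries. Over all settings, 219 values of single genes kept direction and call, while 17 gained a call and 26 lost it, and 67 of the shares, none of which 3 libraries a group could call, kept direction. *Tmod2* and *Tmod4* rest on at most 29 and 54 counts a library, and their counts also spread widely between libraries of a genotype.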
